A study of Mus musculus with 6 samples.

Results

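Cholesterol synthesis and the handling of sterols by the cell were followed through 35 genes in RNA-sequencing of the mouse pancreas. The genes were chosen by symbol for their known roles, and their Ensembl identifiers were looked up among the 22556 rows of the deposited tables. All 35 had a row, and all 35 reached the mean of 1 TPM over the 6 samples that a gene needed to be tested (TPM is the level of a transcript corrected for its length and the library size), as did 16814 genes in all. They comprise 7 genes of the mevalonate steps, 11 genes of the sterol steps, 5 genes of the SREBP regulatory machinery, 3 genes of sterol transport inside the cell, 4 efflux transporters, and 5 genes of esterification, the liver X receptors (LXR) and their targets.

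The study asked which genes polyI:C, a synthetic double-stranded RNA that engages TLR3, changes in acute pancreatitis (AP). The mice were wild-type C57BL/6 males 8 weeks old, in groups of 2: saline mice, AP mice given caerulein, and polyI:C-pretreated AP mice given polyI:C and then caerulein, called pretreated mice below. Caerulein is a cholecystokinin analogue that overstimulates acinar cells, and it was given as 10 hourly injections after a fast of 8 h, with polyI:C at 10 mg/kg (or saline in its place) beforehand and the pancreas taken 24 h after the first caerulein injection. No group received polyI:C without caerulein. RNA came from the whole pancreas, so fewer cells of a type and less RNA per cell cannot be told apart. The sources used here do not say whether each sample is 1 mouse, as they are called here, and p-values measure only the spread between these samples.

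Animal cells build cholesterol from acetyl-CoA through mevalonate, farnesyl diphosphate, squalene and lanosterol. The transcription factor SREBP-2, product of Srebf2, raises the genes of this route when sterols in the endoplasmic reticulum are low. SCAP escorts it to the Golgi for cleavage and the INSIG proteins hold it back. When sterols are abundant, oxysterols activate the LXR receptors, which raise the transporters that move cholesterol out of the cell. The exocrine pancreas makes large amounts of membrane for its secretory granules.

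Between saline and AP mice, 12 of the 35 genes passed the test as higher and 3 as lower, against a background of 18.2% higher and 4.03% lower among all tested genes. Genes of the synthesis route made up 8 of the 12. The 3 that were lower were efflux transporters, and between AP and pretreated mice 1 of these, Abcg8, was the only gene of the 35 past the threshold. A gene passed when limma on log2(TPM + 0.5) gave an adjusted p (Benjamini-Hochberg, all tested genes) no higher than 0.05 and the fold change was at least 2. Fold changes below are on this log2(TPM + 0.5) scale unless named otherwise, and understate the change of low genes.

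The TPM values of most genes sat higher in both caerulein groups. The median gene stood 0.45 log2 units higher in AP than in saline mice, 0.48 higher in pretreated than in saline mice, and 0.04 higher in pretreated than in AP mice. Median-of-ratios scaling brought these medians to 0.05, 0.05 and 0.02. In the same samples the summed TPM of the 6 acinar marker genes with a row, out of 19 listed, went from 101261 and 89202 in saline mice to 32412 and 21790 in AP mice and 15216 and 11790.1 in pretreated mice, nearly all of it Sycn, a secretory granule protein. After median-of-ratios scaling 9 of the 35 genes were higher and 5 lower in AP mice, with 9.33% and 7.32% of all genes. Where the call of one of the 35 genes differs with this scaling, its scaled value is given. The number of reads behind the values was estimated from the spacing of low TPM values at 3960000 and 3310000 in saline mice, 6900000 and 8840000 in AP mice, and 8820000 and 10830000 in pretreated mice, so low genes were measured least precisely in saline mice.

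Marker genes of the pancreas were present, with Sycn at 98753 and 86866 TPM in saline mice and the 9 islet genes summing to 2230 and 1869 TPM. Among cell type markers, 11 of 14 macrophage genes were higher in AP than in saline mice, as were 2 of 4 tested neutrophil genes, 4 of 7 fibroblast genes and 4 of 7 duct genes, while 4 of 6 acinar genes were lower. No tested gene of the T cell, B cell, endothelial, adipocyte or islet lists passed in that comparison. Of all tested genes, 18.2% passed as higher and 4.03% as lower there. Between AP and pretreated mice, 7 macrophage genes were lower and 2 acinar genes were higher, and no gene of the other lists passed. In this comparison 0.404% of all tested genes passed as lower and 0.44% as higher. The macrophage genes summed to 790 and 516 TPM in saline mice, 2877 and 3330.0 in AP mice and 849 and 700.2 in pretreated mice, with no macrophage gene at 0 in every sample. Lyz2, a lysozyme, was the largest part of the sum in saline and AP mice, and the other 13 genes summed to 346 and 208 TPM in saline mice, 986 and 1212 in AP mice and 645 and 581 in pretreated mice. In pretreated against saline mice 5 macrophage genes were higher and 2 lower, with 16.9% and 2.97% of all genes. After median-of-ratios scaling these were 3 and 5, with 7.9% and 5.87% of all genes.

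The promoters of 4 genes are shown because the results turn on these genes and because many genes of the route rose together. Windows from 250 bases before to 50 bases after the RefSeq transcription start were found for 29 of the 35 genes in GRCm38.p6. Capitals mark the letters CCAAT on either strand, the box bound by NF-Y, and in Hmgcs1 also a sterol regulatory element of the letters TCACNCCAC. Hmgcs1 makes the substrate of the rate-limiting step of the route, Msmo1 changed most among the synthesis genes, Idi1 is a further mevalonate gene that rose, and Abcg8 was the efflux gene that changed most.
Hmgcs1, chr13:119690101-119690400, plus strand: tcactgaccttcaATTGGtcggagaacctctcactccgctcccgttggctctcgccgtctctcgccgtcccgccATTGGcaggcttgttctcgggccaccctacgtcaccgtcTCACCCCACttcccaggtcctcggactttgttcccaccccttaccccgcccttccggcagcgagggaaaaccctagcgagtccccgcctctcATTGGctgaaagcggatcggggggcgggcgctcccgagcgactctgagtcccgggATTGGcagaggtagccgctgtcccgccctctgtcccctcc
Idi1, chr13:8885356-8885655, plus strand: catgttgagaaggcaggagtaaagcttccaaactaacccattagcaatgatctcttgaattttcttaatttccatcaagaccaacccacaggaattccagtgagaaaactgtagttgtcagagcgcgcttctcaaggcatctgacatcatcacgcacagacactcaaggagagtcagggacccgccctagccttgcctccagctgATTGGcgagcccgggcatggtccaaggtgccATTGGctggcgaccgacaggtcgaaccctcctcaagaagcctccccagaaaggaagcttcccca
Msmo1, chr8:64733529-64733828, minus strand: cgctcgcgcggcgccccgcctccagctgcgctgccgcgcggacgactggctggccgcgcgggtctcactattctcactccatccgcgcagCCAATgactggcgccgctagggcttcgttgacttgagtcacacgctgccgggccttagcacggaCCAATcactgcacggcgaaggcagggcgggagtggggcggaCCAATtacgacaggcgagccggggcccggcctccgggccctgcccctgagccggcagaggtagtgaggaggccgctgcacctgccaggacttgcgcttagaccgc
Abcg8, chr17:84682871-84683170, plus strand: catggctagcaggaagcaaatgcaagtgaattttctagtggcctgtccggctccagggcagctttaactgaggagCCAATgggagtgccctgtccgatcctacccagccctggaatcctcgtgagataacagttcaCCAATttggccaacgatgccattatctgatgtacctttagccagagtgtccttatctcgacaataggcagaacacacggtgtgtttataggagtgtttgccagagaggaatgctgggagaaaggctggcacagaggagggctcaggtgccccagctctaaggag

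The sterol regulatory element letters were in the window of 1 of 29 genes, Hmgcs1, with the first base at position -137 (the start base being 0), and in 1.44% of 27025 genes with a window. CCAAT was in the windows of 14 of 15 synthesis genes and 9 of the other 14 genes, against 41.1% of all genes. The GC box GGGCGG, which SP1 binds, was also in 14 of 15 synthesis genes and 9 of the other 14, against 38.2% of all genes. The exact letters of an LXR repeat, AGGTCA followed after 4 bases by AGGTCA, were in none of the 29 windows. Only 4 of 27025 genes (0.0148%) held them, so their absence cannot show whether a promoter has an LXR site. All motifs were searched on both strands, the letters of different motifs may overlap, and a match describes the sequence only. Some genes have more than 1 window, and a gene was counted where any window held the letters. Abcg5 and Abcg8 lie on opposite strands of chromosome 17 (GRCm38) and overlap by 6710 bases, Abcg5 at 84658234 to 84683011 on the minus strand and Abcg8 at 84676302 to 84700333 on the plus strand. RefSeq gives 2 windows for Abcg8. The window shown shares 209 bases with that of Abcg5, and the other, chr17:84676052-84676351, lies within Abcg5 at the Abcg8 start given here and holds no CCAAT.

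The mevalonate genes, which turn acetyl-CoA into the isoprenoid unit and join the units to farnesyl diphosphate, were higher in AP mice than in saline mice without overlap for 7 of 7 genes. This order, both AP mice above both saline mice, was held by 52.6% of all tested genes. Of the 7 genes, 3 passed the test as higher, where 18.2% of all tested genes did. Hmgcs1 encodes the cytosolic enzyme that makes HMG-CoA. It stood at 39.6 and 42.5 TPM in saline mice, 151 and 142 in AP mice and 128 and 147 in pretreated mice. The group means were 41.0 ± 2.01, 147 ± 6.13 and 138 ± 13.9 TPM (SD, n = 2 each), and both caerulein groups lay far above the saline mice while overlapping each other. Its log2 fold change in AP against saline mice was 1.82 with a standard error of 0.11 and an adjusted p of 9.0e-05 in limma. Of its exon bases, 12.1% overlap Gm48342 on the opposite strand, so some reads could count for either gene.

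Idi1, the isomerase that balances both isoprenoid units, rose from 3.06 and 3.76 TPM in saline mice to 11.2 and 11.7 TPM in AP mice, and pretreated mice had 9.91 and 9.72 TPM. The log2 fold change in AP against saline mice was 1.62 ± 0.21 (SE) with an adjusted p of 0.0014 in limma. Of its 100-base stretches, 21.9% are shared with Gm13502 and Gm48574, so its reads could be split between genes. Acat2, the cytosolic thiolase that makes acetoacetyl-CoA, also rose, from 5.42 and 6.87 TPM to 14.2 and 17.7 TPM, by 1.31 on the log2 scale with an adjusted p of 0.0042 in limma. After median-of-ratios scaling its log2 difference was 0.90 and no longer passed, and without AP replicate 2 its adjusted p was 0.054 in limma. It shares 28.9% of its 100-base stretches with Acat3 and Tcp1.

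The kinases and the decarboxylase in the middle of the mevalonate steps had smaller differences that did not reach 2-fold. Mvk, mevalonate kinase, was at 5.67 and 6.06 TPM in saline mice and 11.03 and 11.5 TPM in AP mice, a log2 difference of 0.89 with an adjusted p of 0.020 in limma. Mvd, the decarboxylase, was at 9.54 and 8.38 TPM in saline and 14.5 and 18.0 TPM in AP mice, a log2 difference of 0.82 with an adjusted p of 0.034 in limma. Pmvk, phosphomevalonate kinase, had a log2 difference of 0.48, close to the shift of the median gene, with an adjusted p of 0.20 in limma. Fdps, farnesyl diphosphate synthase, was the lowest of the synthesis genes, at 0.802 and 1.41 TPM in saline mice, 2.19 and 3.10 in AP mice and 0.766 and 1.07 in pretreated mice. These rest on an estimated 4.91 and 7.07, 19.6 and 35.2 and 8.45 and 14.7 reads, and 26.7% of its exon bases lie in Gm43738 on the same strand, so its values are uncertain. Its differences did not pass in any comparison.

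The sterol steps, from farnesyl diphosphate through squalene to cholesterol, showed 10 of 11 genes higher in AP mice than in saline mice without overlap. This order was held by 52.6% of all tested genes. Of the 11 genes, 5 passed the test as higher, where 18.2% of all tested genes did. Msmo1, the sterol C4-methyl oxidase that begins removal of the C4 methyl groups, had the largest log2 difference of the 18 synthesis genes. It was at 6.37 and 5.89 TPM in saline mice, 34.4 and 32.9 in AP mice and 21.7 and 21.7 in pretreated mice, with the 3 groups not overlapping. The group means were 6.13 ± 0.336, 33.6 ± 1.07 and 21.7 ± 0.0397 TPM (SD, n = 2 each). The ratio of the AP to the saline mean was 5.48, and the log2 fold change was 2.36 ± 0.12 (SE) with an adjusted p of 5.1e-05 in limma.

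The other enzymes of C4 demethylation moved with it. Nsdhl, the sterol dehydrogenase of this complex, was at 6.07 and 4.26 TPM in saline mice and 18.2 and 19.6 TPM in AP mice, a log2 rise of 1.79 with an adjusted p of 0.0010 in limma. Hsd17b7, its ketoreductase, was at 5.36 and 3.02 TPM and 15.2 and 14.7 TPM in the same groups, a log2 rise of 1.76 with an adjusted p of 0.0020 in limma. All 3 genes of this reaction thus passed the test, and so did Cyp51, which removes the C14 methyl group earlier in the route. Cyp51 went from 13.0 and 13.8 TPM to 36.7 and 38.9 TPM, a log2 rise of 1.46 with an adjusted p of 0.00023 in limma. Tm7sf2, a sterol C14 reductase, was low, at 2.06 and 2.15 TPM in saline and 2.77 and 3.30 TPM in AP mice, and its log2 difference of 0.44 did not pass. Of its exon bases, 12.1% lie in Vps51 on the same strand.

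Squalene epoxidase, encoded by Sqle and a rate-limiting enzyme of the later route, rose from 6.91 and 6.46 TPM in saline mice to 20.9 and 18.9 TPM in AP mice. Its log2 fold change was 1.51 ± 0.14 (SE), with an adjusted p of 0.00045 in limma. Fdft1, squalene synthase, was the most abundant gene of the sterol steps, with 77.6 and 87.8 TPM in saline mice and 159 and 154 TPM in AP mice. Its difference of 0.92 log2 units had an adjusted p of 0.00069 in limma but stayed under 2-fold, and without saline replicate 2 it was 1.01. Of its exon bases, 18.3% overlap Ctsb on the opposite strand, and the strand setting of the counting is not given in the sources used here. Lss, lanosterol synthase, which sits between Sqle and Cyp51 in the route, was the only synthesis gene that was lower in AP mice than in saline mice without overlap. It was at 6.82 and 5.77 TPM in saline mice and 4.46 and 4.87 TPM in AP mice, with a log2 difference of -0.39 and an adjusted p of 0.12 in limma, which did not pass.

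The last steps, which rearrange and reduce the sterol ring, gave smaller differences. Ebp, the sterol isomerase, was at 20.7 and 28.8 TPM in saline and 46.2 and 49.0 TPM in AP mice, a log2 difference of 0.95 with an adjusted p of 0.0066 in limma, just under 2-fold. Without saline replicate 2 it was 1.18 and passed. Sc5d, the C5 desaturase, had a log2 difference of 0.54 with an adjusted p of 0.026 in limma. Dhcr7, which makes cholesterol from 7-dehydrocholesterol, had 0.49 with an adjusted p of 0.15 in limma. Sc5d and Dhcr7 were thus within about 0.1 of the shift of the median gene.

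**Figure D1:**
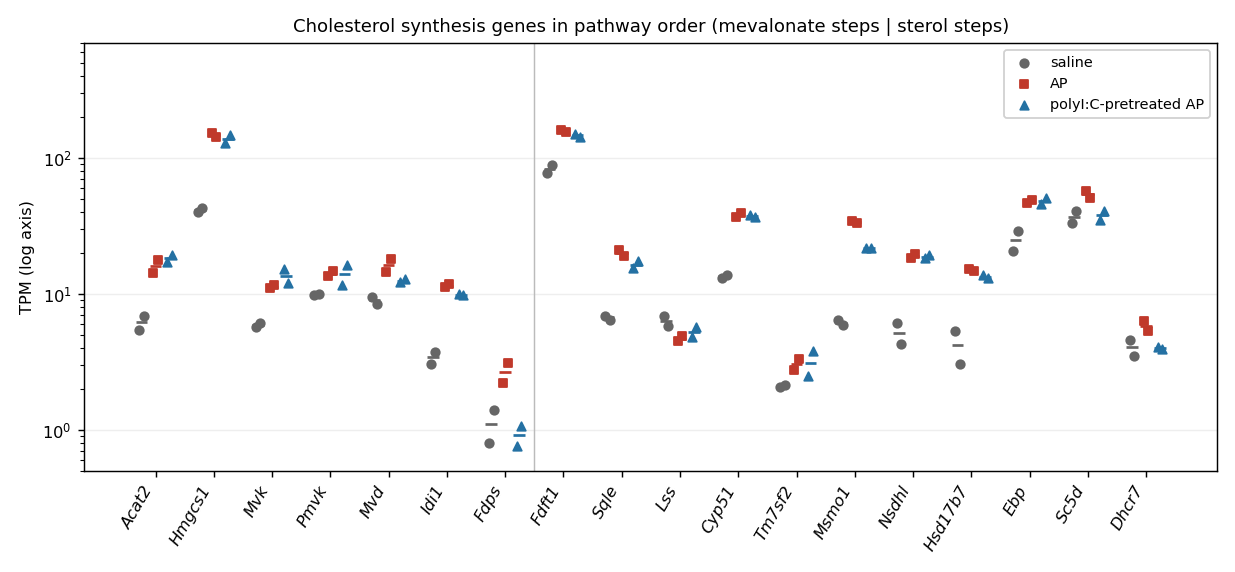
TPM of the 18 synthesis genes in each of the 6 pancreas samples on a log axis, in pathway order, with a short line at each group mean. Hmgcs1, Idi1, Sqle, Cyp51, Msmo1, Nsdhl and Hsd17b7 show both caerulein groups well above the saline mice, while Lss does not.

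Summed over the 18 genes, the synthesis route held 256 and 281 TPM in saline mice, 618 and 610.4 in AP mice and 544 and 572 in pretreated mice. In AP against saline mice the log2 fold changes of the 18 genes had a median of 0.96, where the median of all tested genes was 0.45. After median-of-ratios scaling 7 of the 18 genes still passed as higher, Acat2 being the exception among the 8, and none passed as lower. Of all genes, 9.33% and 7.32% did. In this comparison no gene of the 18 changed direction under either scaling.

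Of the 5 genes of the SREBP machinery, 1 passed as higher in AP than in saline mice, where 18.2% of all tested genes did. After median-of-ratios scaling 0 of the 5 passed, with 9.33% of all genes higher. Srebf2, which encodes SREBP-2, was at 22.9 and 19.8 TPM in saline mice, 48.4 and 47.5 in AP mice and 63.6 and 54.0 in pretreated mice, the saline mice lying below all others. Its log2 fold change in AP against saline mice was 1.15 ± 0.12 (SE), with an adjusted p of 0.00068 in limma, and 0.73 after median-of-ratios scaling, which was under 2-fold. Srebf1, whose products mainly serve fatty acid synthesis, was at 35.0 and 30.6 TPM in saline and 36.7 and 33.1 TPM in AP mice, and the groups overlapped. Its log2 difference of 0.09 had an adjusted p of 0.63 in limma and was -0.33 after median-of-ratios scaling.

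Scap, which encodes the escort of SREBP, was at 44.9 and 44.3 TPM in saline mice and 74.7 and 74.6 TPM in AP mice, a log2 difference of 0.74 with an adjusted p of 0.0077 in limma. Of its exon bases, 13.2% overlap 5830462I19Rik on the opposite strand. Insig1 was the most abundant of the 35 genes in all 6 samples, at 228 and 247 TPM in saline mice, 339.8 and 326 in AP mice and 290.3 and 292 in pretreated mice. It encodes the retention protein that SREBP-2 itself raises, and its log2 difference in AP against saline mice was 0.49 with an adjusted p of 0.0050 in limma. Insig2, its paralogue, had 0.69 with an adjusted p of 0.0052 in limma. Relative to the median gene, the differences of Scap, Insig1 and Insig2 were 0.29, 0.04 and 0.24 log2 units. None of the 3 reached 2-fold.

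Sterol transport inside the cell was higher in AP than in saline mice for 3 of 3 genes without overlap, an order held by 52.6% of all tested genes, and 1 passed, where 18.2% of all genes did. Stard4, a soluble carrier that moves sterol between membranes and is a target of SREBP-2, was at 1.45 and 1.07 TPM in saline mice, 7.27 and 7.06 in AP mice and 7.11 and 12.5 in pretreated mice. The saline values rest on an estimated 11.8 and 7.13 reads. The log2 fold change was 2.13 ± 0.29 (SE) in AP against saline mice, with an adjusted p of 0.0017 in limma, and 2.51 in pretreated against saline mice, with an adjusted p of 0.0010 in limma. Npc1 and Npc2 encode the pair of proteins that release cholesterol from lysosomes. Npc1 was at 9.75 and 6.95 TPM in saline and 17.6 and 15.2 TPM in AP mice, a log2 difference of 0.95 with an adjusted p of 0.0054 in limma, just under 2-fold. It was 1.18 without saline replicate 1 and 1.05 without AP replicate 2, which passed. Npc2 was at 79.4 and 83.4 TPM and 121 and 121 TPM in the same groups, a log2 difference of 0.57 with an adjusted p of 0.0024 in limma.

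The efflux transporters went the other way. All 4 were lower in AP mice than in saline mice without overlap, an order held by 16.4% of all tested genes. Of the 4, 3 passed the test as lower, where 4.03% of all tested genes did. Abca1, which loads cholesterol onto apolipoprotein A-I, was at 174 and 182 TPM in saline mice, 75.2 and 77.9 in AP mice and 122 and 122 in pretreated mice. The means were 178 ± 5.73, 76.5 ± 1.92 and 122 ± 0.261 TPM (SD, n = 2 each), with narrow spread and no overlap between the 3 groups. In AP against saline mice Abca1 fell by 1.21 on the log2 scale, with a standard error of 0.08 and an adjusted p of 0.00014 in limma. Between AP and pretreated mice it was 0.67 log2 units higher, with an adjusted p of 0.022 in limma, short of 2-fold.

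Abcg1, which passes cholesterol to high-density lipoprotein, was at 67.1 and 57.8 TPM in saline mice, 28.6 and 35.9 in AP mice and 49.3 and 40.7 in pretreated mice. Its log2 difference in AP against saline mice was -0.95 ± 0.16 (SE) with an adjusted p of 0.0037 in limma, just short of 2-fold, and -1.37 after median-of-ratios scaling, which passed. It also passed without saline replicate 2, at -1.05, and without AP replicate 2, at -1.11.

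Abcg5 and Abcg8 encode the paired subunits of the transporter that pumps sterols out across the apical membrane, best known from liver and gut. Abcg8 was at 8.22 and 9.32 TPM in saline mice, 0.439 and 0.417 in AP mice and 3.65 and 8.31 in pretreated mice. The estimated reads behind these values were 44.9 and 41.7, 3.5 and 4.21 and 35.9 and 102, so the AP values rest on a handful of reads although the AP libraries were deeper than the saline libraries. The means were 8.77 ± 0.777, 0.428 ± 0.0159 and 5.98 ± 3.29 TPM (SD, n = 2 each), and the AP mice lay apart from both other groups, which overlapped. In AP against saline mice Abcg8 fell by 3.32 on the log2 scale, with a standard error of 0.39 and an adjusted p of 0.00091 in limma. This call held under all 16 alternatives.

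Abcg8 was also the 1 gene of the 35 that passed between AP and pretreated mice, where 0.44% of all genes passed as higher and 0.404% as lower. It was 2.70 log2 units higher with an adjusted p of 0.033 in limma. The 2 pretreated mice differed by more than 2-fold from each other. The call was lost under 10 of 16 alternatives, with adjusted p from 0.024 to 0.40 in limma, among them the leaving out of any 1 of the 6 samples. The log2 difference was 2.16 without pretreated replicate 2 and 3.25 without replicate 1 of that group.

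Abcg5 was at 4.98 and 6.33 TPM in saline mice, 0.907 and 1.34 in AP mice and 4.99 and 13.0 in pretreated mice, from an estimated 19.6 and 20.5, 5.23 and 9.84 and 35.5 and 116 reads. The AP mice were again the lowest, and replicate 2 was the higher of the 2 pretreated mice for both genes. Abcg5 fell by 1.92 on the log2 scale in AP against saline mice, with an adjusted p of 0.017 in limma. That call was lost when any saline or AP sample was left out, with adjusted p from 0.053 to 0.14 in limma. Between AP and pretreated mice the log2 difference of 2.42 had an adjusted p of 0.074 in limma and did not pass. Exons of Abcg5 and Abcg8 share 82 bases on opposite strands, so some reads could count for either gene.

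**Figure D2:**
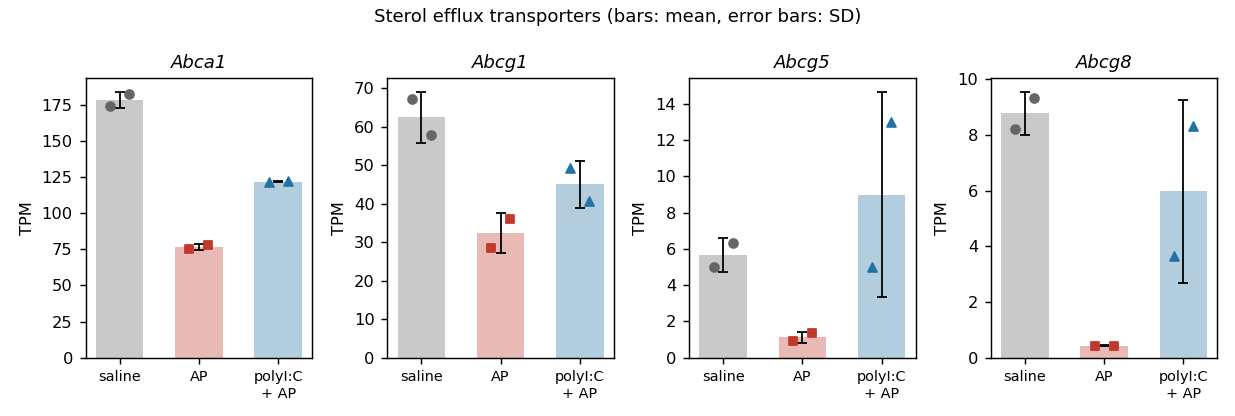
TPM of the 4 efflux transporters in each of the 6 pancreas samples (points), with group means (bars) and SD (error bars, n = 2). The AP mice are the lowest group for all 4 genes, and the pretreated mice spread widely for Abcg5 and Abcg8.

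Some acinar genes moved with the transporters, and their part in these results was not tested. Bhlha15, the acinar maturation factor MIST1, was at 391 and 326 TPM in saline mice, 53.6 and 46.4 in AP mice and 161 and 171 in pretreated mice. Rbpjl, a subunit of the acinar PTF1 complex, was at 238 and 195, 104 and 79.8 and 196 and 191 TPM in the same order. Both were past the threshold as lower in AP than in saline mice and as higher in pretreated than in AP mice. The other 4 acinar genes did not follow this order. Sycn was at 98753 and 86866, 31898 and 21348 and 14466 and 11044 TPM, and Ctrc, a digestive protease, at 1742 and 1677, 194 and 167 and 159.7 and 141 TPM, lowest in pretreated mice. Ptf1a was at 44.5 and 40.8, 55.2 and 43.4 and 67.3 and 98.3 TPM, and Nr5a2 at 92.4 and 97.0, 107 and 105 and 165 and 145 TPM, highest in those mice.

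Among the genes of esterification and the LXR arm, 2 of 5 passed as higher in AP than in saline mice. Of all tested genes, 18.2% did. Nr1h2, which encodes LXR beta, was at 12.3 and 11.4 TPM in saline mice, 26.8 and 25.7 in AP mice and 24.8 and 20.2 in pretreated mice. Its log2 fold change in AP against saline mice was 1.12 with an adjusted p of 0.0021 in limma, and 0.70 after median-of-ratios scaling, under 2-fold. Nr1h3, which encodes LXR alpha, was at 14.4 and 18.7, 11.2 and 14.9 and 18.2 and 20.6 TPM in the 3 groups, with saline and AP mice overlapping and an adjusted p of 0.29 in limma. Soat1, which esterifies cholesterol for storage, was at 7.97 and 10.04 TPM in saline mice, 15.0 and 16.7 in AP mice and 19.5 and 21.9 in pretreated mice. Its log2 difference in AP against saline mice was 0.79 with an adjusted p of 0.0062 in limma, under 2-fold.

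Mylip encodes IDOL, an LXR-induced ubiquitin ligase that degrades lipoprotein receptors. It was at 45.2 and 40.7 TPM in saline mice, 19.1 and 24.2 in AP mice and 25.9 and 22.6 in pretreated mice, with the saline mice above all others. The log2 difference in AP against saline mice was -0.98 with an adjusted p of 0.0039 in limma, just short of 2-fold, and -1.40 after median-of-ratios scaling, which passed. It also passed without saline replicate 2, at -1.05, and without AP replicate 2, at -1.15.

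Ch25h, cholesterol 25-hydroxylase, an interferon-inducible enzyme of macrophages that makes 25-hydroxycholesterol, was listed at 0 in both saline mice. It was at 2.43 and 3.56 TPM in AP mice and 2.54 and 1.57 TPM in pretreated mice, from an estimated 7.16 and 13.3 and 9.24 and 7.17 reads. The test called it higher in AP than in saline mice, with an adjusted p of 0.012 in limma, and in pretreated than in saline mice, with an adjusted p of 0.025 in limma. The first call was lost without AP replicate 2, with an adjusted p of 0.077 in limma, and the second without either pretreated sample, with 0.074 and 0.056. After upper-quartile scaling the second had an adjusted p just above 0.05 in limma and was also lost. No fold is given against a group listed at 0. Of the exon bases of Ch25h, 11.5% overlap Gm26902 on the opposite strand. Macrophage marker genes were higher in AP mice too, 11 of 14 of them past the threshold and 5 of 14 in pretreated mice, in each case against saline mice. Of all tested genes, 18.2% and 16.9% passed as higher in these comparisons. In pretreated against saline mice 2 of the 14 passed as lower, with 2.97% of all genes. After median-of-ratios scaling 3 were higher and 5 lower there, with 7.9% and 5.87% of all genes. The part of macrophages in the Ch25h values was not tested.

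**Figure D3:**
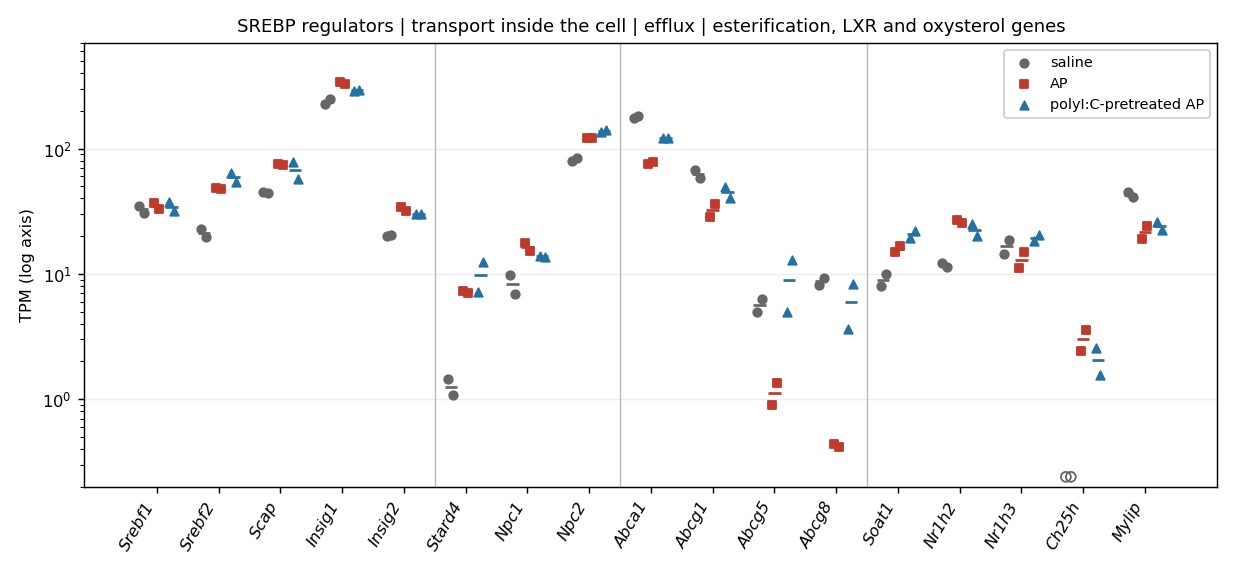
TPM of the 17 genes of regulation, transport, efflux, esterification and the LXR arm in each of the 6 pancreas samples on a log axis, with a short line at each group mean. Open circles at the lower edge mark Ch25h, listed at 0 in both saline mice, and the AP mice lie lowest for the 4 efflux genes.

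The comparison of AP with pretreated mice asked which of these genes polyI:C pretreatment changed. It shares the AP samples with the comparison above. None of the 18 synthesis genes passed in either direction, and their median log2 difference was -0.10 against 0.04 for all tested genes. Both pretreated mice were below both AP mice for 9 of the 18 and above them for 1, where 22.1% and 27.7% of all genes had these orders. Msmo1 had the lowest adjusted p among the synthesis genes, at 21.7 and 21.7 TPM in pretreated mice against 34.4 and 32.9 in AP mice, a log2 difference of -0.62 ± 0.12 (SE) with an adjusted p of 0.067 in limma. Sc5d had -0.50 and Dhcr7 -0.49 log2 units, with adjusted p of 0.19 and 0.42 in limma. Fdps had the lowest value, -1.14, with an adjusted p of 0.32 in limma and few reads. Hmgcs1, Cyp51, Nsdhl and Ebp differed by -0.09, -0.01, -0.01 and 0.01 log2 units, with standard errors from 0.11 to 0.22.

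All 4 efflux genes were higher in pretreated than in AP mice without overlap, an order held by 27.7% of all tested genes. Their log2 differences were 0.67 for Abca1, 0.48 for Abcg1, 2.42 for Abcg5 and 2.70 for Abcg8, with a median of 1.54. Over all 35 genes, an unadjusted p of at most 0.05 in limma was reached by 6 genes as higher and by 3 as lower. The share of all tested genes at that p was not counted, so these counts cannot be read as a shift. The regulators differed little. Srebf2 was 0.29 log2 units higher with an adjusted p of 0.38 in limma, and Insig1 had -0.19 with 0.40.

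**Figure D4:**
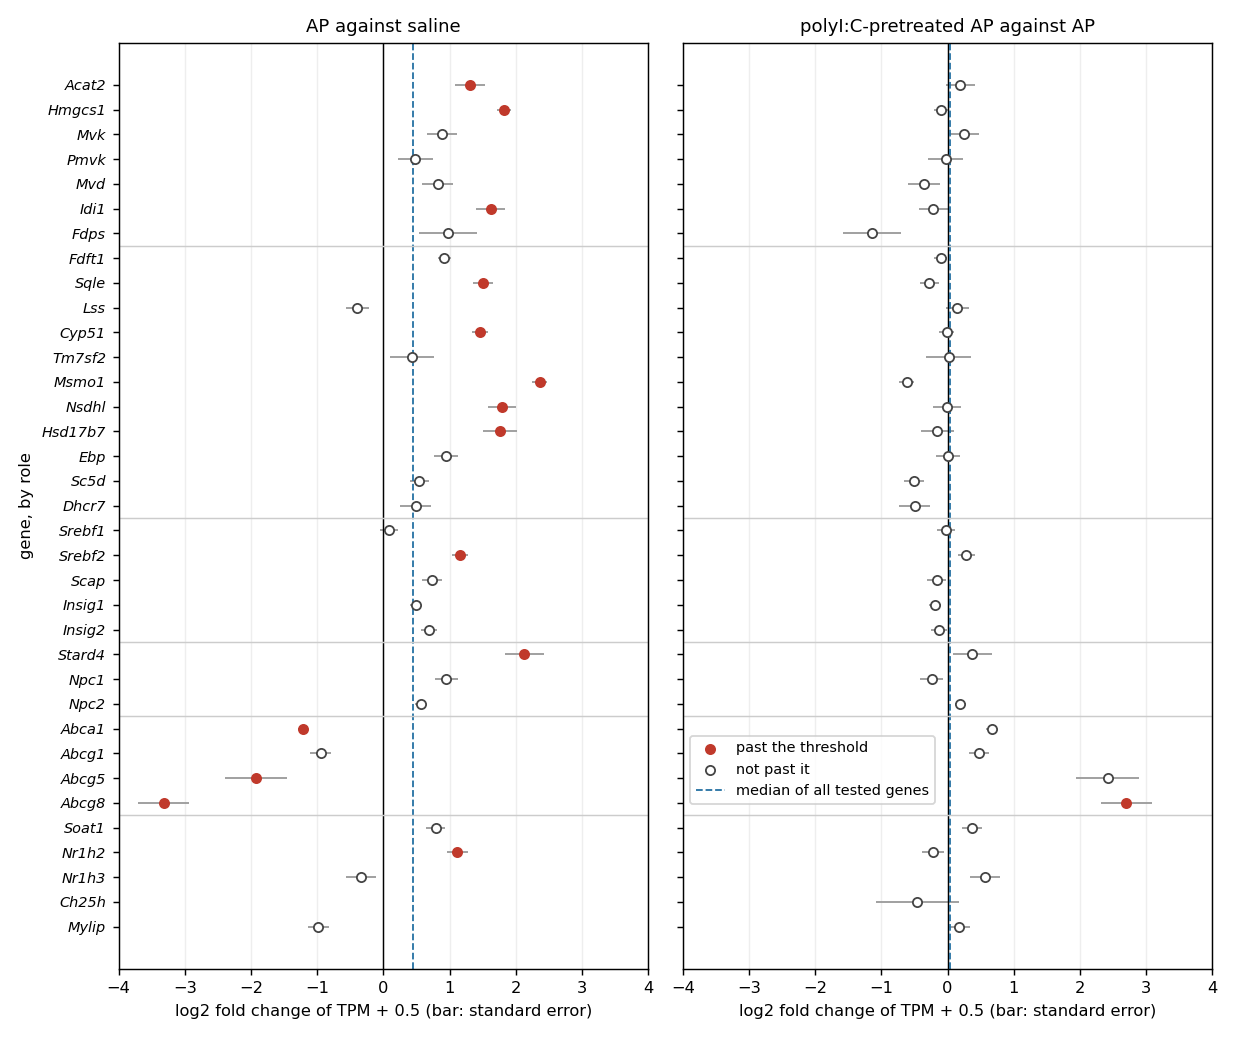
Log2 fold change of TPM + 0.5 with its standard error for the 35 genes, ordered by role from the mevalonate steps at the top, in AP against saline mice (left) and pretreated against AP mice (right). Filled points passed the test, the dashed line is the median of all tested genes (0.45 left, 0.04 right), and Ch25h, listed at 0 in saline mice, is left out on the left. The efflux genes lie left of 0 on the left panel and right of it on the right panel, and both panels use the AP samples.

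Against the saline mice, the pretreated mice had 13 of the 35 genes higher and none lower, with 16.9% and 2.97% of all genes. After median-of-ratios scaling these were 8 and 2, with 7.9% and 5.87% of all genes. Of the 18 synthesis genes, 9 passed as higher, and 6 after that scaling. The 9 were the 8 that passed in AP mice and Mvk, and the other 4 of the 13 were Srebf2, Stard4, Soat1 and Ch25h. After scaling Idi1, Sqle and Srebf2 were at 0.99, 0.80 and 0.99 log2 units and fell short of 2-fold. Mvk, at 15.2 and 11.9 TPM in pretreated mice, passed here with a log2 rise of 1.14 and an adjusted p of 0.0080 in limma, but not after scaling, at 0.71, nor without replicate 1 of that group, with an adjusted p of 0.055 in limma. Soat1 passed with a log2 rise of 1.16 and an adjusted p of 0.0014 in limma, and had 0.73 after scaling. Msmo1 was still 1.75 log2 units above the saline mice, with an adjusted p of 0.00014 in limma. Hsd17b7 was 1.61 higher, a call lost without replicate 1 of the pretreated mice, with an adjusted p of 0.056 in limma. Abca1 was -0.55 with an adjusted p of 0.0026 in limma, under 2-fold, and -1.002 after scaling, where it passed as lower. Mylip was -0.81 and, after scaling, -1.26, where it passed as lower too. Ebp and Nr1h2 were at 0.96 and 0.90 log2 units, and passed without saline replicate 2 for Ebp, at 1.19, and without pretreated replicate 2 for Nr1h2, at 1.04. Abcg8 and Abcg5 had -0.61 and 0.49 log2 units, with adjusted p of 0.26 and 0.45 in limma.

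Other genes of sterol and fatty acid metabolism were taken from lists of 63 genes, of which 62 had a row and 61 were tested. Between saline and AP mice 7 passed as higher and 4 as lower, none passed in either direction between AP and pretreated mice, and 9 were higher and 3 lower in pretreated than in saline mice. Of all tested genes, 18.2% were higher and 4.03% lower in AP mice, and 16.9% and 2.97% in pretreated mice, against saline mice. After median-of-ratios scaling the counts were 5 higher and 5 lower in AP mice and 4 and 4 in pretreated mice. Before adjustment, 15 were higher and 5 lower at p of at most 0.05 in limma between AP and pretreated mice. The share of all tested genes at that p was not counted, so these counts cannot be read as a shift. In AP against saline mice the log2 fold changes of the 61 genes had a median of 0.38, below the 0.45 of all tested genes.

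Fatty acid synthesis, which SREBP-1 serves, had 2 of 16 genes higher and 1 lower in AP than in saline mice, where 18.2% and 4.03% of all tested genes passed, and its median log2 difference of 0.16 was below the 0.45 of all genes. Elovl6, a fatty acid elongase, was at 1.29 and 0.979 TPM in saline mice, 17.3 and 15.8 in AP mice and 11.8 and 21.6 in pretreated mice, a log2 rise of 3.39 in AP against saline mice with an adjusted p of 0.00027 in limma. Me1, the malic enzyme that supplies NADPH, was at 4.23 and 2.93, 10.4 and 15.3 and 19.8 and 23.7 TPM in the same order. Gpam, which starts glycerolipid synthesis, was at 277 and 317 TPM in saline mice, 96.9 and 91.7 in AP mice and 154 and 140.1 in pretreated mice, and fell by 1.65 on the log2 scale in AP against saline mice, with an adjusted p of 0.00011 in limma. In pretreated against saline mice 4 genes of the list were higher, the largest being Elovl6, Me1 and Fads1, and Gpam was lower. After median-of-ratios scaling 2 of the 4 remained, and Fads1, at 1.10 before and 0.64 after it, was not among them.

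The isoprenoid branch, which leaves the route after farnesyl diphosphate, had 2 of 13 genes higher in AP than in saline mice. Of all tested genes, 18.2% passed as higher in this comparison. Fntb, the beta subunit of farnesyltransferase, was at 2.64 and 2.34 TPM in saline and 7.66 and 7.02 TPM in AP mice, a log2 rise of 1.39 with an adjusted p of 0.0030 in limma. Rce1, the protease that trims farnesylated proteins, had a log2 rise of 1.09 with an adjusted p of 0.0031 in limma, and 0.67 after median-of-ratios scaling, under 2-fold. Fntb also passed as higher in pretreated against saline mice. Of 8 genes of SREBP processing none passed in AP against saline mice, 4 having an unadjusted p of at most 0.05 in limma. The share of all tested genes at that p was not counted. Erlin2 passed in pretreated against saline mice with a log2 rise of 1.03 and an adjusted p of 0.00096 in limma, but not after median-of-ratios scaling, at 0.58.

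Among 5 tested oxysterol and bile acid enzymes, 1 passed as lower in AP than in saline mice, where 4.03% of all tested genes did. This was Cyp39a1, a 7-alpha-hydroxylase of 24-hydroxycholesterol. It was at 417 and 415 TPM in saline mice, 49.7 and 48.5 in AP mice and 92.9 and 89.6 in pretreated mice, the 3 groups not overlapping. It fell by 3.07 on the log2 scale in AP against saline mice, with an adjusted p of 1.3e-05 in limma, and was 0.89 log2 units higher in pretreated than in AP mice, with an adjusted p of 0.012 in limma, under 2-fold. Of 13 sterol transfer proteins, Tspo and Lrp1 were higher in AP than in saline mice, with log2 differences of 1.45 and 1.02, and Gramd1b was lower. In this comparison 18.2% of all tested genes passed as higher and 4.03% as lower. After median-of-ratios scaling Lrp1 was at 0.60, under 2-fold. Gramd1b, which carries sterol from the plasma membrane to the endoplasmic reticulum, was at 27.3 and 27.7 TPM in saline mice, 11.05 and 10.4 in AP mice and 19.0 and 16.7 in pretreated mice. Tspo alone of this list passed in pretreated against saline mice, with a log2 rise of 2.09, and after scaling Gramd1b also passed there as lower, at -1.06.

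Of 6 tested LXR partners and targets, Arl4c was higher and Smpdl3a lower in AP than in saline mice, where 18.2% and 4.03% of all tested genes passed. Arl4c, a small GTPase, was at 1.17 and 1.53 TPM in saline mice, 4.87 and 5.32 in AP mice and 2.13 and 1.79 in pretreated mice, a log2 rise of 1.60 in AP against saline mice with an adjusted p of 0.0049 in limma. Smpdl3a, a sphingomyelinase-like phosphodiesterase, was at 367 and 341, 119 and 114 and 107 and 117 TPM in the same order, and fell by 1.60 on the log2 scale in AP against saline mice, with an adjusted p of 0.00011 in limma. An incomplete selection of genes known as LXR targets went in different directions between saline and AP mice. Abca1, Abcg1, Abcg5, Abcg8, Mylip, Smpdl3a and Scd1 were lower in AP mice without overlap. Arl4c and Fasn were higher without overlap, and Srebf1 overlapped. Fasn, fatty acid synthase, was at 36.1 and 26.4 TPM in saline mice and 62.7 and 61.1 TPM in AP mice. Scd1, a fatty acid desaturase, was at 120 and 123 TPM and 69.9 and 67.6 TPM in these groups. The selection does not show how LXR targets moved as a set. Of the 6 tested LXR partners and targets, both AP mice were above both saline mice for 4 and below them for 2. Of all tested genes, 52.6% and 16.4% had these orders. Nr0b2, a repressive nuclear receptor, passed in pretreated against saline mice with a log2 rise of 1.06 and an adjusted p of 0.0073 in limma, but not after median-of-ratios scaling, at 0.61. Smpdl3a was lower in that comparison.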

How the data were processed

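Pancreas RNA was sequenced in 6 samples, which the labels place in 3 groups of 2. For each sample the authors deposited 1 table of TPM values by gene. Per the labels and the methods, the reads were trimmed with Trimmomatic, mapped to mm10 with STAR, counted with htseq-count, and compared with DESeq2. The annotation, the strand setting and the step from counts to TPM are not given in the sources used here. The labels name both a ribosomal depletion kit and an mRNA kit.

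The TPM values were used as deposited. Of 22556 Ensembl identifiers, 22490 were found in GENCODE M21 (GRCm38), which gave symbols, coordinates and exon lengths. Limma 3.58.1 in R 4.3.3 was fitted to log2(TPM + 0.5) for the 16814 genes whose mean reached 1 TPM, with 1 coefficient per group, all 6 samples sharing the spread, and a variance prior following log2(mean TPM × exon length + 1). P-values were Benjamini-Hochberg adjusted over all tested genes, and a gene passed at 0.05 and 2-fold. An exact two-sided permutation test of 2 against 2 samples cannot go below p = 0.333 and was not used. The fit was tested on simulated data.

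Depth is unknown from TPM itself. Reads per library were estimated from the spacing of low values, of which 51.2% to 62.5% fell within 0.1 of a whole read, so these counts are approximate and no count test was run. Promoter windows came from RefSeq (GRCm38.p6), with no entry used for Fdps, Fdft1, Sqle, Stard4, Npc1 and Abcg1. Shared sequence was counted over stretches of 100 bases of GENCODE transcripts.

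The 35 genes and the lists of pathway and marker genes were chosen with earlier results of these data known. All 35 genes are named, and from the other pathway lists at most the 3 largest called genes per list and comparison, besides Fasn and Scd1. Alternatives were other pseudocounts, filters, scalings and priors, a fit of only the groups compared, a replicate block, and the omission of each sample in turn.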

Additional observations from a re-analysis of the deposited data

How the results depend on the processing

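The 3 comparisons were recomputed under 16 alternatives, each changing 1 choice. Pseudocounts of 0.1 and 1 TPM, a mean of at least 5 TPM and the replicate block kept every call among the 35 genes that they could test. In AP against saline mice median-of-ratios scaling gave 1564 genes higher and 1226 lower, 5 of the 35 lower, and upper-quartile scaling 1497, 1288 and 5. In pretreated against saline mice these were 1324 and 984 genes, with 8 of the 35 higher and 2 lower, and 1238 and 1064 genes, with 6 higher and 2 lower. Genes that changed sign under median-of-ratios scaling, on the log2 scale, were Srebf1 at -0.33 in AP against saline mice, Tm7sf2 at -0.0050 and Ebp at -0.012 in pretreated against AP mice, Sc5d at -0.41, Srebf1 at -0.38, Insig1 at -0.16 and Nr1h3 at -0.22 in pretreated against saline mice. Genes that changed sign under upper-quartile scaling, on the log2 scale, were Srebf1 at -0.36 in AP against saline mice, Tm7sf2 at -0.022 and Ebp at -0.032 in pretreated against AP mice, Pmvk at -0.031, Mvd at -0.018, Sc5d at -0.45, Srebf1 at -0.43, Insig1 at -0.21 and Nr1h3 at -0.26 in pretreated against saline mice.

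Between AP and pretreated mice, 74 genes were higher and 68 lower. These became 44 higher without a filter on low values, 14 and 14 with a prior that follows the mean log2 value, and 22 and 19 with 1 prior for all genes. Under these 3 settings and with only the 2 groups compared, 0 of the 35 genes passed as higher, since Abcg8 did not. Without 1 sample, 0 to 63 genes were higher and 0 to 78 lower, with 0 of the 35 genes higher each time. No gene was higher without AP replicate 1, AP replicate 2 or pretreated replicate 2, 48 were without saline replicate 2, and 5 were lower without pretreated replicate 1. In AP against saline mice between 1983 genes (without AP replicate 2) and 3161 were higher. A sample left alone in its group was assumed to vary like the other groups. Leaving out 1 sample changed the sign of differences that had not passed, on the log2 scale, over the ranges Srebf1 from -0.0058 to 0.19 in AP against saline mice, Hmgcs1 from -0.20 to 0.0090, Pmvk from -0.26 to 0.20, Cyp51 from -0.054 to 0.030, Tm7sf2 from -0.24 to 0.27, Nsdhl from -0.061 to 0.038, Ebp from -0.054 to 0.078, Srebf1 from -0.14 to 0.090, Scap from -0.39 to 0.054 and Stard4 from -0.0094 to 0.76 in pretreated against AP mice, and Fdps from -0.44 to 0.11, Sc5d from -0.10 to 0.19, Dhcr7 from -0.18 to 0.16, Srebf1 from -0.047 to 0.18 and Abcg5 from -0.16 to 1.14 in pretreated against saline mice. The cause of these changes was not tested.

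Deviations of samples that carry 1 replicate number were not correlated across groups (correlations of 0.0075, 0.035 and -0.0039 across genes), and the labels tie no numbers to a shared batch. The replicate block gave 2987 genes higher and 659 lower in AP against saline mice, 62 and 62 between AP and pretreated mice, and 2799 and 488 in pretreated against saline mice, with 12 and 3, 1 and 0, and 13 and 0 of the 35 genes. Low genes limit precision most, namely Fdps, Ch25h, Abcg5, Abcg8, Tm7sf2 and, in saline mice, Stard4.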
